A study of Mus musculus with 8 samples.

Results

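The 49 cell cycle and mitosis genes described here are a list of gene symbols, drawn up with earlier results of these data known, of 25 genes that act in G1 and S phase (G1/S genes) and 24 that act in G2 and mitosis (G2/M genes). All 49 were among the 13387 genes of the deposited matrix of counts, and all 49 were among the 11722 genes that passed the filter on low counts. The matrix came from bulk RNA-Seq of wild-type C57BL/6 murine cells after 18 hours of culture, with 4 libraries from megakaryocytes (MKs, the marrow cells that shed platelets) cultured alone and 4 from MKs cocultured with mesenchymal stem cells (MSCs). The MKs were enriched from bone marrow with beads against CD41, the MSCs were sorted as CD45-, Ter119-, CD31-, CD51+ and CD140a+ cells, and both groups were kept in StemSpan medium with thrombopoietin. After culture, the cells in suspension were taken by hand off the adherent MSCs. The labels name the sequenced cells as MKs freed of platelets, whereas the methods name them as platelets pooled from several wells. The study describes 4 mice per group, but no label ties a library to an animal, so the p-values below measure the spread between these libraries, which may be in part technical.

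A dividing cell passes the G1/S border when D-type cyclins, bound to CDK4 or CDK6, and then cyclin E, bound to CDK2, release E2F factors that switch on the genes of DNA replication. Inhibitors of the CIP/KIP and INK4 families restrain these kinases. Cyclins A and B with CDK1, the Aurora and Polo-like kinases, the spindle checkpoint and the anaphase-promoting complex (APC/C) then carry the cell through mitosis. MKs are known for endomitosis, in which they replicate DNA and enter mitosis again and again but do not complete cytokinesis, and so become polyploid.

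Library totals ran from 4939874 to 12523616 counts, and values are given in CPM, which are counts brought to a common library total with edgeR's TMM factors. Replicate 3 of the cocultures stood apart before any gene was compared. It had the highest total but counts on only 10735 genes, against 12406 to 13193 in the other libraries. Of the 49 genes, 19 (38.8%) were there under 0.25 times the mean of the other cocultures and 7 (14.3%) were more than 2 times that mean, against 36.1% and 22.8% of all genes tested. E2f1 and Bub1 had 0 counts in that library, which allows up to 0.314 CPM for counting error only. The fold changes of cell cycle genes are therefore given for all 8 libraries and again without that replicate.

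Markers of other marrow cells also differed between the groups. The 15 MK and platelet markers summed to 1960 to 2210.4 CPM in MKs cultured alone and to 1633 to 2412 CPM in cocultures, led by Pf4, none of them was at 0 throughout a group, and 1 of 15, Nfe2, a transcription factor of MK maturation, was called lower. The 10 neutrophil markers, led by S100a8, summed to 81973 to 82941 CPM in MKs cultured alone and to 4289 to 10174 CPM in cocultures, and 10 of 10 were called lower. The 5 granulocyte progenitor markers in the matrix, led by Mpo, summed to 3339 to 5732 CPM and 74.1 to 299 CPM in the same order, and 5 of 5 were called lower. B cell markers, led by Ms4a1, summed to 898 to 963 CPM and 91.1 to 239.8 CPM, and 4 of 10 were called lower. The 12 MSC markers in the matrix, led by Sparc, summed to 153 to 187 CPM in MKs cultured alone and 1331 to 4388 CPM in cocultures, and 8 were called higher. The 11 macrophage markers, led by Lgals3, summed to 916 to 1521 CPM and 3228 to 12274 CPM, and 10 were called higher, with Marco at 0 in all libraries of MKs cultured alone. Erythroid markers, led by Tfrc, summed to 109 to 144 CPM and 133 to 325 CPM, and 1 of the 4 tested was called higher. Without replicate 3 of the cocultures, 1 MK and platelet marker was called higher (Selp) and 3 lower (Gata1, Gp6 and Nfe2), 9 MSC and 11 macrophage markers were called higher, 10 neutrophil, 5 granulocyte progenitor and 7 B cell markers were called lower, and 1 erythroid marker was called higher and 3 lower. The part of these cells in the values below was not tested, and in bulk libraries fewer cells of a type and less RNA per cell cannot be told apart.

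In cocultures Ccnd1, Ccnd2, Cdk4 and Cdkn1a rose and Cdk6, Cdkn1b and Nusap1 fell, and the other 42 of the 49 genes were not called. A gene was called when edgeR's quasi-likelihood test across all genes gave a Benjamini-Hochberg adjusted p no higher than 0.05, the change was 2-fold or more and the mean reached 1 CPM in either group. Of the 25 G1/S genes, Ccnd1, Ccnd2, Cdk4 and Cdkn1a (4 genes) were called higher and Cdk6 and Cdkn1b (2 genes) were called lower, beside 20.5% of all genes tested called in either direction, 13.2% called higher and 7.31% called lower. The 6 of 25 called are thus a share near that of all genes. Of the 24 G2/M genes, 0 were called higher and 1, Nusap1, was called lower, a smaller share than that of all genes, and the difference in share was not tested. At an unadjusted p under 0.05 by the same edgeR test there were 10 G1/S and 2 G2/M genes, beside 4236 of all 11722 tested. DESeq2 called the same numbers of both in each direction as edgeR, beside 16.5% of all genes higher and 11.2% lower. Fold changes are coculture over MKs cultured alone, with ± for the standard error. The median log2 fold change was 0.21 for G1/S genes, -0.39 for G2/M genes and 0.034 for all genes tested. Among genes with at least 10 counts in every library, the G1/S median was 0.070, beside 0.078 for all genes. Without coculture replicate 2 it was 0.017, beside 0.040. The G2/M medians under these settings were -0.35 and -0.67.

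Without replicate 3 of the cocultures, 7 G1/S genes were called higher and 2 lower, and 0 G2/M genes were called higher and 2 lower. In that comparison 36.0% of all genes tested were called, 20.6% higher and 15.4% lower. The genes added to the calls were Ccne1, E2f1 and Rrm2, which were higher, and Mki67, which was lower. The medians were then 0.12 for G1/S genes, -0.32 for G2/M genes and 0.030 for all genes tested. When all 8 libraries were scaled to the summed MK and platelet markers, which moved the median of all genes tested to 0.20, the medians were 0.47 for G1/S and -0.12 for G2/M genes and both groups had as many calls in each direction as with TMM factors, beside 16.0% of all genes called higher and 5.22% lower. With both changes together the median of all genes was 0.31 and those of the G1/S and G2/M genes were 0.42 and -0.0084. There 7 G1/S genes were called higher and 2 lower and 0 G2/M genes in either direction, beside 25.8% of all genes called higher and 11.0% lower.

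**Figure D1:**
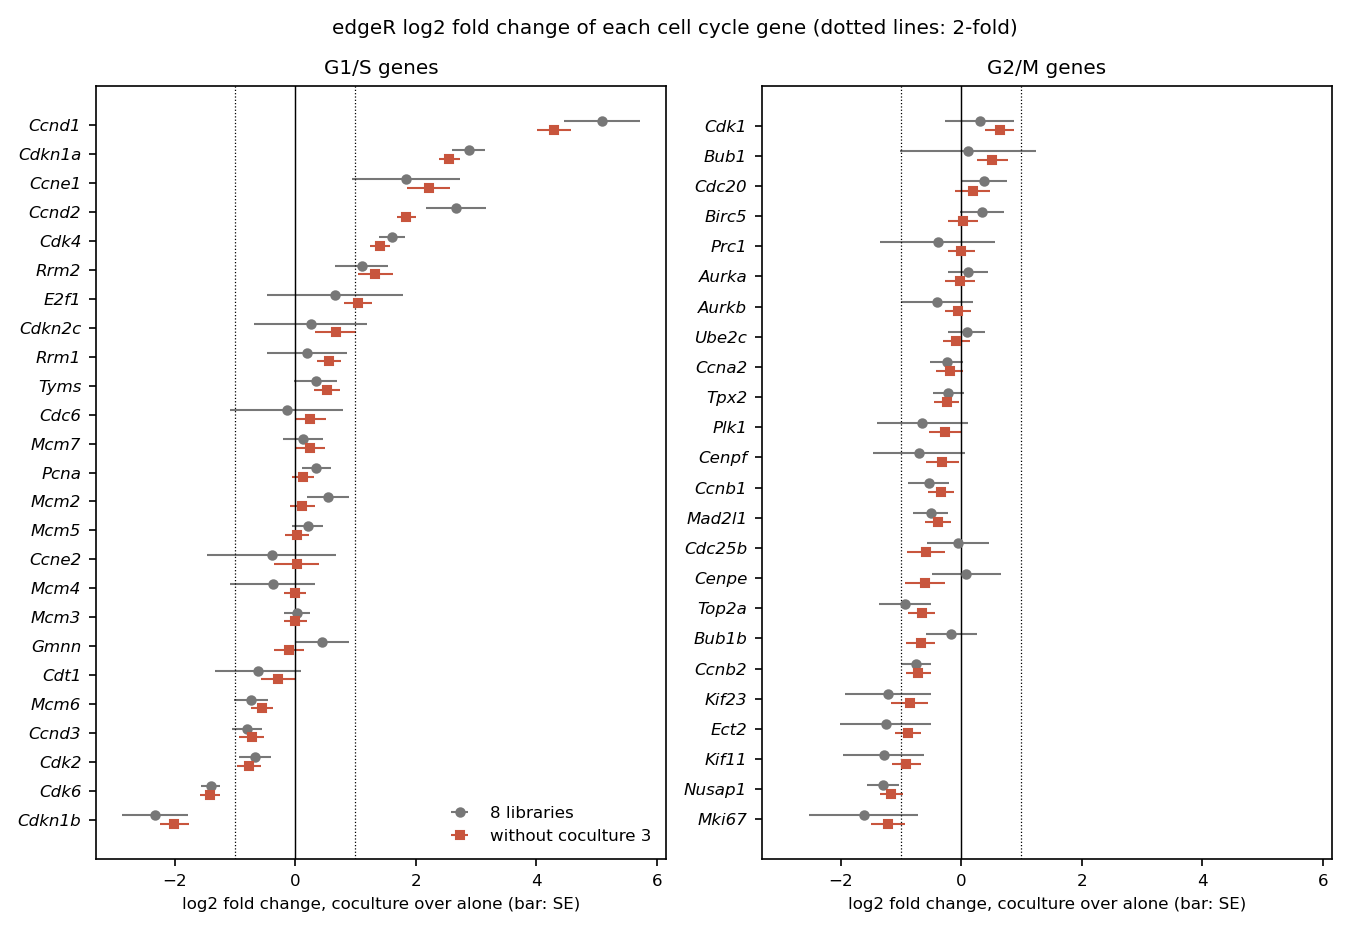
The log2 fold change of each of the 49 genes (coculture over MKs cultured alone) is plotted with its standard error, for all 8 libraries (grey circles) and without replicate 3 of the cocultures (red squares), with dotted lines at a 2-fold change. Ccnd1 lies farthest to the right at 5.09 and Cdkn1b farthest to the left among G1/S genes at -2.33, while the G2/M genes lie between -1.62 and 0.38 with all 8 libraries.

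Promoter sequences are shown for short motifs known from cell cycle genes, which the choice of genes did not use. All but the last motif named below were held by different shares of the G1/S and G2/M promoters. RefSeq promoter windows on GRCm38.p6, from 250 bases before to 50 after a start, matched 41 of the 49 genes with 47 windows, and 6 genes had a window for each of their 2 starts. Aurkb, Ccna2, Ccnd1, Ccnd2, Ccne2, Gmnn, Mcm4 and Tpx2 had no entry. The motifs searched on both strands were the CHR (cell cycle genes homology region) TTTGAA, the CCAAT box (bound by NF-Y), the E2F motif TTCCCGC and a further E2F motif spelled TTGGCGC. The CCAAT box reads ATTGG on the other strand and can share letters there with the motif TTGGCGC. The CHR was in 16 of 23 G2/M windows (69.6%) and 1 of 24 G1/S windows (4.17%), against 17.9% of all 32851 windows. CCAAT was in 87.0% of G2/M and 54.2% of G1/S windows, against 37.4% of all. TTCCCGC was in 0 of 23 G2/M windows and 33.3% of G1/S windows, against 4.6% of all, and TTGGCGC was in 21.7% of G2/M and 20.8% of G1/S windows, against 2.45% of all.

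The 150 bases before the start are printed below, 5′ to 3′ on the gene's strand, for the called genes Cdk4, Cdk6, Cdkn1a (with both starts) and Cdkn1b, for the replication genes Mcm6 and Rrm1, and for the mitosis genes Cdk1 and Mki67. Capitals mark the motifs named above, and a match is a description of these letters, not a site shown to be bound.
Cdk4 (chr10:127063385-127063534, plus strand): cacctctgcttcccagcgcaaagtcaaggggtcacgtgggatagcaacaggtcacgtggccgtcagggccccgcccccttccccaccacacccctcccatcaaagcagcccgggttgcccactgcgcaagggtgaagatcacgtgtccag
Cdk6 (chr5:3343743-3343892, plus strand): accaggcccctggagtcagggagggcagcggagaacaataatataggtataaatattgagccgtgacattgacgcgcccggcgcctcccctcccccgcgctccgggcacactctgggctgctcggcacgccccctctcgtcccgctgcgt
Cdkn1a start 1 (chr17:29090829-29090978, plus strand): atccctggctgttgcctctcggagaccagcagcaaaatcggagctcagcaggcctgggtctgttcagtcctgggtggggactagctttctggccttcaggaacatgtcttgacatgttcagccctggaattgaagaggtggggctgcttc
Cdkn1a start 2 (chr17:29093619-29093768, plus strand): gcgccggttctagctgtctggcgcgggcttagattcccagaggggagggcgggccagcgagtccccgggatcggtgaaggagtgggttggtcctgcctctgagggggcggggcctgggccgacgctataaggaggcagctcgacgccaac
Cdkn1b (chr6:134920251-134920400, plus strand): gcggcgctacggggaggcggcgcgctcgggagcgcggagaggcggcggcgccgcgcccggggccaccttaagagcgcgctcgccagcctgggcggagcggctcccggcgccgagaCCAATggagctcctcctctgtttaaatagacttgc
Mcm6 (chr1:128359706-128359855, minus strand): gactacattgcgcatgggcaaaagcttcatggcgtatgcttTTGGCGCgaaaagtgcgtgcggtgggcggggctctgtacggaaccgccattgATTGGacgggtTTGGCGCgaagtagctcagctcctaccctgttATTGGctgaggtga
Rrm1 (chr7:102441545-102441694, plus strand): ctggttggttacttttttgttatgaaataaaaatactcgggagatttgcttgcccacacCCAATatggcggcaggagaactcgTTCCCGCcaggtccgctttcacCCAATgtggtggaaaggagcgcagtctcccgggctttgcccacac
Cdk1 (chr10:69352913-69353062, minus strand): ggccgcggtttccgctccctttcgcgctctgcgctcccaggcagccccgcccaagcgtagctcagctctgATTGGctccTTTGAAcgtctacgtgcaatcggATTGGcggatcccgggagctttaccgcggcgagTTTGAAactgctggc
Mki67 (chr7:135716380-135716529, minus strand): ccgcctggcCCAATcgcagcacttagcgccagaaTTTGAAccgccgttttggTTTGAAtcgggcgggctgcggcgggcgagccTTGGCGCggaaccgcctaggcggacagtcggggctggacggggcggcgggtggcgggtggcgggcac
The windows of Cdk4, Cdk6 and both starts of Cdkn1a held none of the 4 motifs in these bases, and that of Cdkn1b held a single CCAAT. Those of Cdk1 and Mki67 each held TTTGAA at 2 places.

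Among D-type cyclins and their kinases, Ccnd1, Ccnd2 and Cdk4 rose and Cdk6 fell in cocultures. Ccnd1, cyclin D1 (chr7:144929931-144939925, minus strand of GRCm38), measured 1.99, 2.16, 2.22 and 1.14 CPM in MKs cultured alone and 34.3, 45.7, 145 and 34.5 CPM in cocultures. It was low in every library of MKs cultured alone, where 3 counts correspond to 0.309 to 0.662 CPM, and the groups did not overlap. Its log2 fold change was 5.09 ± 0.63 (edgeR adjusted p = 0.000591), a 34.2-fold rise, and 4.29 ± 0.28 or 19.6-fold without replicate 3 of the cocultures (adjusted p = 1.87e-09).

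Ccnd2, cyclin D2 (chr6:127125162-127152193, minus strand), was already well expressed, at 156, 146, 159 and 169.8 CPM in MKs cultured alone, and measured 629, 576, 2275 and 521 CPM in cocultures. Replicate 3 was more than 3 times as high as any other coculture, and each of the others was still above every library of MKs cultured alone. By edgeR, Ccnd2 had a log2 fold change of 2.66 ± 0.50 (adjusted p = 0.00544), or 6.33-fold, against 1.85 ± 0.16 or 3.59-fold without that replicate (adjusted p = 6.37e-08). Ccnd3, cyclin D3, a D-type cyclin known from polyploid MKs, measured 201, 269.7, 343 and 331 CPM in MKs cultured alone and 134, 189.7, 131 and 205 CPM in cocultures. Coculture replicate 4 lay above the lowest library of MKs cultured alone, and the log2 fold change of Ccnd3 of -0.80 ± 0.24 (edgeR adjusted p = 0.0453) did not reach the 2-fold threshold, nor did that of -0.72 ± 0.21 without replicate 3.

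Values per kilobase use the merged length of all annotated exons of a gene, not that of the transcripts expressed. On this scale Ccnd3 made up 64.9% ± 5.2 (SD, n = 4) of the 3 D cyclins in MKs cultured alone. In cocultures it made up 18.2% ± 9.6 (SD, n = 4) of them, or 22.5% ± 5.1 (SD, n = 3) without replicate 3. Ccnd2 went from 34.3% ± 5.1 to 72.4% ± 9.0 of that sum, and Ccnd1 from 0.826% ± 0.28 to 9.47% ± 1.3. The sum itself was 39.9 to 56.5 CPM per kilobase in MKs cultured alone and 86.1 to 92.6 in cocultures 1, 2 and 4, with 287.6 in replicate 3. On the log2 scale of the ratio within a library, Ccnd1 to Ccnd3 differed by 5.31 between groups and Ccnd2 to Ccnd3 by 3.15. Neither ratio overlapped between the groups (p = 0.0286 by a two-sided exact permutation test, the smallest that 4 against 4 libraries allow, and 0.0457 adjusted over the 8 ratios). Given the ranges of the 3 genes above, these ratios could not overlap, and their p adds nothing to the fold changes. Without replicate 3 the differences were 4.73 and 2.55, where 4 against 3 libraries cannot give a p below 0.0571.

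Cdk4, a catalytic partner of the D cyclins (chr10:127063534-127067920, plus strand), measured 78.3, 92.3, 96.9 and 96.8 CPM in MKs cultured alone and 226, 238, 373 and 273 CPM in cocultures. All cocultures were at least 2 times as high as the highest library of MKs cultured alone, with a log2 fold change of 1.61 ± 0.21 (edgeR adjusted p = 0.000788) and 1.41 ± 0.16 without replicate 3. Cdk6, the other catalytic partner (chr5:3341485-3531008, plus strand), measured 549, 423, 506 and 464 CPM in MKs cultured alone and 192, 191, 182 and 171 CPM in cocultures. The 4 cocultures, replicate 3 included, lay within a narrow range under every library of MKs cultured alone. Cdk6 had a log2 fold change of -1.40 ± 0.16 (edgeR adjusted p = 0.000378) and -1.41 ± 0.17 without replicate 3.

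Per kilobase, Cdk4 was 44.8% ± 4.7 (SD, n = 4) of the sum of the pair in MKs cultured alone, against 86.2% ± 2.9 (SD, n = 4) in cocultures, or 85.0% ± 2.0 (SD, n = 3) without replicate 3. The log2 ratio of Cdk6 to Cdk4 was 2.80, 2.19, 2.38 and 2.26 in MKs cultured alone and -0.24, -0.32, -1.04 and -0.67 in cocultures. The ratio thus changed sign in every coculture, by -2.97 on average and -2.82 without replicate 3 (two-sided exact permutation test over 8 libraries, p = 0.0286, adjusted 0.0457). Since Cdk4 was higher and Cdk6 lower in every coculture, this ratio could not overlap, and its p adds nothing to the fold changes.

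**Figure D2:**
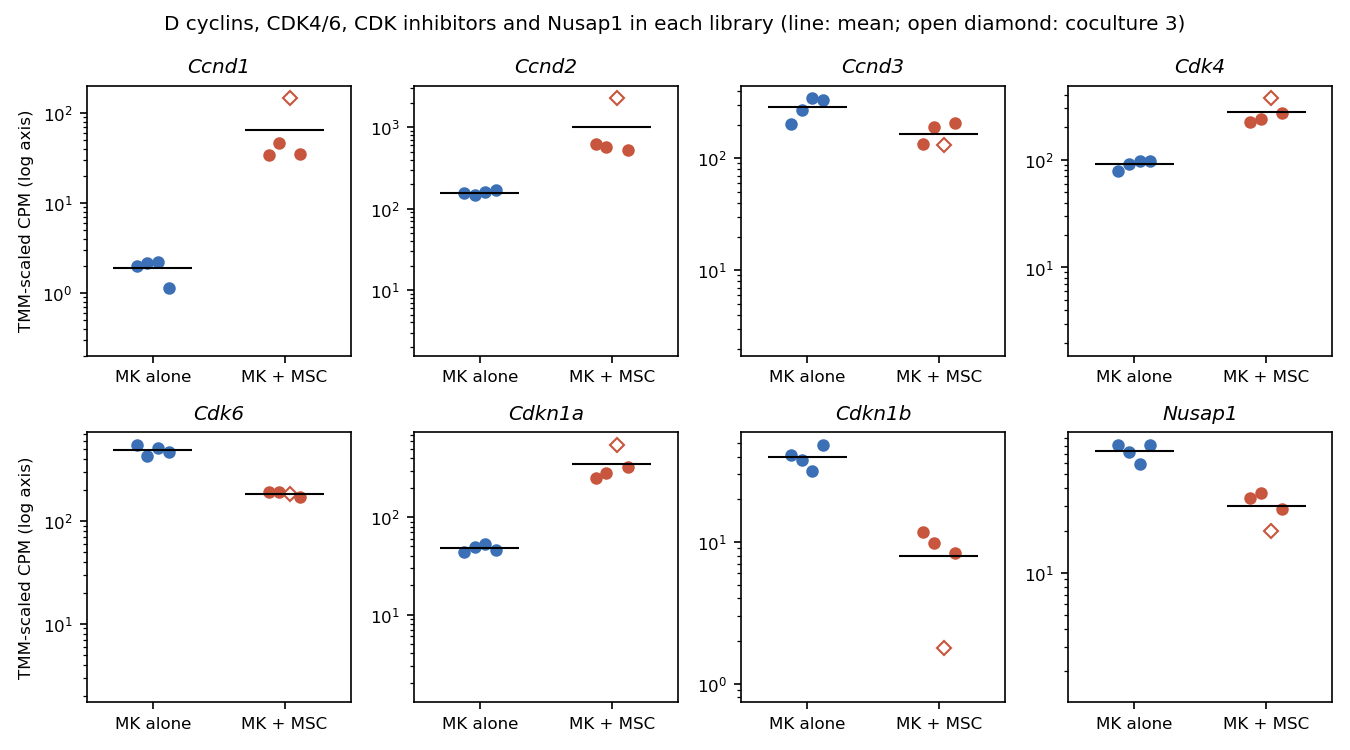
The CPM of 8 genes in each library is plotted on a log axis for MKs cultured alone (blue) and cocultures (red, with replicate 3 as an open diamond), and the line is the mean. Ccnd1, Ccnd2, Cdk4 and Cdkn1a are higher in all cocultures and Cdk6, Cdkn1b and Nusap1 are lower in all of them, while the 2 groups overlap for Ccnd3.

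The inhibitors of the CIP/KIP family moved in opposite directions. Cdkn1a, which encodes p21, a classical target of p53 (chr17:29090976-29100727, plus strand), measured 44.4, 49.8, 52.8 and 45.6 CPM in MKs cultured alone and 254, 285, 552 and 326 CPM in cocultures. No library of MKs cultured alone came near the lowest coculture, and the log2 fold change was 2.88 ± 0.28 (edgeR adjusted p = 0.000159), or 7.36-fold, and 2.56 ± 0.17 without replicate 3. Cdkn1b, which encodes p27 (chr6:134920401-134925513, plus strand), measured 41.1, 37.7, 31.7 and 48.5 CPM in MKs cultured alone and 11.8, 9.77, 1.78 and 8.33 CPM in cocultures. Replicate 3 was the lowest by far and the other cocultures were also below all MKs cultured alone. Cdkn1b had a log2 fold change of -2.33 ± 0.55 (edgeR adjusted p = 0.0159) and -2.002 ± 0.23 without replicate 3, and the call was lost without replicate 4 of the MKs cultured alone (-2.24).

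Per kilobase, Cdkn1a was 60.9% ± 5.85 (SD, n = 4) of the sum of Cdkn1a and Cdkn1b in MKs cultured alone, against 97.9% ± 1.4 (SD, n = 4) in cocultures. The log2 ratio of Cdkn1a to Cdkn1b ran from -0.089 to 0.73 in MKs cultured alone and from 4.38 to 7.92 in cocultures, a difference of 5.29, or 4.51 without replicate 3 (two-sided exact permutation test over 8 libraries, p = 0.0286, adjusted 0.0457). Here too the ratio could not overlap, since Cdkn1a was higher and Cdkn1b lower in every coculture, and its p adds nothing. Cdkn2c, an INK4 inhibitor of CDK4 and CDK6, stayed between 5.37 and 13.0 CPM in MKs cultured alone and between 10.2 and 14.1 CPM in cocultures 1, 2 and 4, with 0.209 CPM in replicate 3. Its log2 fold change was 0.25 ± 0.93 (edgeR adjusted p = 0.875) and 0.67 ± 0.33 without that replicate (adjusted p = 0.0998).

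Ccnd1, Ccnd2, Cdk4 and Cdkn1a were each at their highest of all 8 libraries in replicate 3 of the cocultures. That library had the highest sum of macrophage markers, at 12274 CPM, and the lowest sum of MSC markers among cocultures, at 1331 CPM. It also had 22.8% of all genes tested at more than 2 times the mean of the other cocultures. Any link between the marker sums and these genes was not tested. When libraries were scaled to the summed MK and platelet markers, the log2 fold changes were 5.12 for Ccnd1, 2.69 for Ccnd2, 1.72 for Cdk4, -1.24 for Cdk6, 2.97 for Cdkn1a and -2.08 for Cdkn1b, and all 6 were called. This scaling leaves RNA of other cells in the values. The marker sum also rests largely on Pf4, with 1601 of 2412 CPM in coculture replicate 3.

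At the next step of the G1/S border, Ccne1, Ccne2 and E2f1 were at or near 0 in replicate 3 of the cocultures and Cdk2 was not. Ccne1, cyclin E1, measured 1.99, 3.61, 2.99 and 4.88 CPM in MKs cultured alone and 15.4, 23.1, 0.628 and 9.54 CPM in cocultures. Cocultures 1, 2 and 4 were above all MKs cultured alone and replicate 3 was below them. The log2 fold change of Ccne1 was 1.85 ± 0.90 with all libraries (edgeR adjusted p = 0.175) and 2.21 ± 0.36 without replicate 3 (adjusted p = 6.11e-05), where the gene was called. E2f1, the transcription factor released at the G1/S border, measured 14.6, 24.8, 22.7 and 16.4 CPM in MKs cultured alone and 35.3, 48.6, 0 and 40.6 CPM in cocultures. Its log2 fold change of 0.66 ± 1.13 (edgeR adjusted p = 0.713) became 1.04 ± 0.23 without replicate 3 (adjusted p = 0.000936).

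Ccne2, cyclin E2, varied from 18.7 to 68.6 CPM among MKs cultured alone, and measured 33.3, 57.8, 0.105 and 31.6 CPM in cocultures. Its libraries overlapped, and its log2 fold change was -0.39 ± 1.07 with all libraries (edgeR adjusted p = 0.833) and 0.027 ± 0.38 without replicate 3. Cdk2, the partner of cyclin E, measured 40.6, 52.5, 58.4 and 43.6 CPM in MKs cultured alone and 24.9, 33.9, 35.2 and 29.0 CPM in cocultures, with no overlap. Replicate 3 was the highest coculture for Cdk2. Cdk2 had a log2 fold change of -0.67 ± 0.26 (edgeR adjusted p = 0.0981) and -0.76 ± 0.20 without replicate 3 (adjusted p = 0.00444), under 2-fold in both. The log2 ratio of Ccne1 to Ccne2 ran from -4.80 to -2.46 in MKs cultured alone and from -1.68 to 0.90 in cocultures, a difference of 2.48, or 1.92 without replicate 3 (two-sided exact permutation test over 8 libraries, p = 0.0286, adjusted 0.0457). Both genes were close to the added 0.5 CPM in replicate 3, so that the ratio there rests on 6 counts of Ccne1 and 1 count of Ccne2.

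Genes of origin licensing, which load the MCM helicase on DNA before S phase, were not called in either direction (0 of 9, beside 20.5% of all genes tested). Mcm6, a subunit of that helicase, measured 234, 307, 259 and 249.1 CPM in MKs cultured alone and 174, 221, 86.3 and 149 CPM in cocultures. Its groups did not overlap, and its log2 fold change was -0.74 ± 0.28 (edgeR adjusted p = 0.0900) and -0.55 ± 0.18 without replicate 3 (adjusted p = 0.0164), short of 2-fold. Mcm3, another subunit, measured 70.4, 120.2, 91.9 and 89.2 CPM and 83.3, 106, 96.8 and 94.7 CPM, with overlapping groups. The log2 fold change of Mcm3 was 0.033 ± 0.21 (edgeR adjusted p = 0.931), which an interval of 2 standard errors puts between -0.39 and 0.46, and 0.00051 ± 0.19 without replicate 3. Those of the other 7, Cdc6 and Cdt1, which help to load the helicase, geminin (Gmnn), which blocks its reloading, and Mcm2, Mcm4, Mcm5 and Mcm7, lay between -0.62 and 0.54 with all libraries and between -0.28 and 0.25 without replicate 3. Cdt1 to Gmnn, as a log2 ratio, overlapped between the groups, with a difference of -1.31 (two-sided exact permutation test, p = 0.371, adjusted 0.495) with all libraries and of -0.13 without replicate 3.

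In DNA synthesis, Rrm1, the large subunit of ribonucleotide reductase, measured 223, 202, 192 and 158 CPM in MKs cultured alone and 270.1, 377, 18.2 and 219.8 CPM in cocultures. Rrm2, its small subunit, measured 90.7, 111, 107 and 85.6 CPM and 214, 418, 90.5 and 124 CPM. For both genes coculture 2 was the highest library, and replicate 3 of the cocultures lay within or below the range of MKs cultured alone. Rrm1 had a log2 fold change of 0.19 ± 0.66 (edgeR adjusted p = 0.868) and 0.56 ± 0.20 without replicate 3 (adjusted p = 0.0239), under 2-fold. That of Rrm2 was 1.10 ± 0.44 (edgeR adjusted p = 0.105), and without replicate 3 it was 1.33 ± 0.29 (adjusted p = 0.00101), which was called.

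Pcna, the sliding clamp of DNA polymerases, measured 191, 178, 164 and 162 CPM in MKs cultured alone and 216, 218, 309.8 and 141 CPM in cocultures. Coculture 4 was the lowest of the 8 libraries and replicate 3 the highest, and the log2 fold change of Pcna was 0.35 ± 0.24 (edgeR adjusted p = 0.332) and 0.12 ± 0.18 without replicate 3 (adjusted p = 0.581). Tyms, thymidylate synthase, had a log2 fold change of 0.34 ± 0.35 (edgeR adjusted p = 0.537) and of 0.53 ± 0.22 without replicate 3 (adjusted p = 0.0474).

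**Figure D3:**
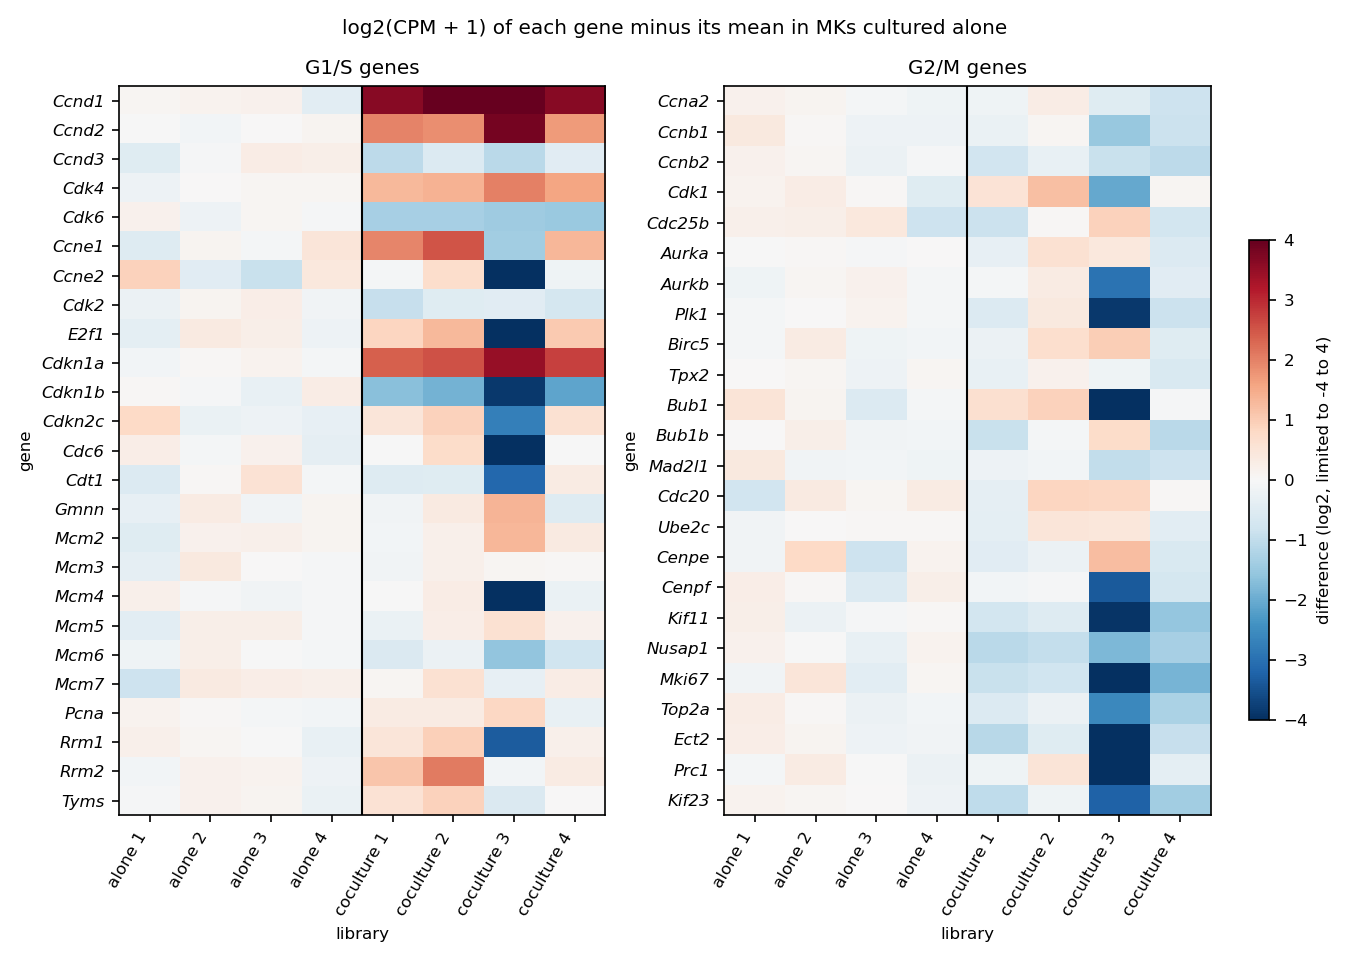
Each cell is the log2(CPM + 1) of a gene (row) in a library (column) minus the gene's mean in MKs cultured alone, limited to between -4 and 4, with G1/S genes on the left and G2/M genes on the right. Replicate 3 of the cocultures stands out by dark cells in both directions, and Ccnd1, Ccnd2, Cdk4 and Cdkn1a are red and Cdk6 and Cdkn1b blue in all 4 cocultures.

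Among mitotic cyclins and CDK1, 0 of 5 genes were called, beside 20.5% of all genes tested. Ccnb1, cyclin B1, measured 266, 210.2, 176 and 177 CPM in MKs cultured alone and 170.4, 217, 70.2 and 113 CPM in cocultures. Ccna2, cyclin A2, measured 104, 101, 87.7 and 82.5 CPM and 82.7, 116, 67.1 and 52.4 CPM. For both genes coculture 2 was as high as the libraries of MKs cultured alone, and replicates 3 and 4 were lower than all of these. For Ccnb1, coculture 1 was also under all libraries of MKs cultured alone. The log2 fold change was -0.54 ± 0.34 for Ccnb1 (edgeR adjusted p = 0.291) and -0.24 ± 0.27 for Ccna2 (adjusted p = 0.559), and without replicate 3 it was -0.33 ± 0.22 and -0.18 ± 0.22. Ccnb2, cyclin B2, had groups that did not overlap, with a log2 fold change of -0.75 ± 0.25 (edgeR adjusted p = 0.0572) and -0.71 ± 0.20 without replicate 3 (adjusted p = 0.00749), under 2-fold. Cdk1, the kinase of mitotic entry, had a log2 fold change of 0.31 ± 0.57 with all libraries and 0.64 ± 0.25 without replicate 3 (edgeR adjusted p = 0.739 and 0.0388), and Cdc25b, a phosphatase that activates it, had -0.05 ± 0.51 and -0.58 ± 0.31. The log2 ratio of Ccnb1 to Ccnb2 differed by 0.12 (two-sided exact permutation test, p = 0.686, adjusted 0.686), and by 0.37 without replicate 3, where the groups did not overlap.

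Mitotic kinases and the chromosomal passenger complex were not called (0 of 5), and neither were genes of the spindle checkpoint and the APC/C (0 of 5, each beside the same 20.5%). Tpx2, which activates Aurora A on the spindle, measured 51.2, 53.2, 43.8 and 53.2 CPM in MKs cultured alone and 40.8, 56.4, 44.3 and 32.4 CPM in cocultures, with a log2 fold change of -0.21 ± 0.25 (edgeR adjusted p = 0.592) and -0.24 ± 0.21 without replicate 3. Birc5, survivin, a passenger subunit, measured 46.6, 62.0, 43.6 and 45.1 CPM and 41.1, 78.02, 98.3 and 34.3 CPM, with a log2 fold change of 0.35 ± 0.36 (edgeR adjusted p = 0.532) and 0.033 ± 0.25 without replicate 3. The groups overlapped for both, and Birc5 was highest in replicate 3 of the cocultures. Aurora A (Aurka), Aurora B (Aurkb) and Polo-like kinase 1 (Plk1) had log2 fold changes between -0.64 and 0.12, and between -0.27 and -0.025 without replicate 3.

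Mad2l1, the checkpoint protein that holds back the APC/C, measured 104, 71.5, 72.7 and 69.1 CPM in MKs cultured alone and 68.2, 72.8, 38.6 and 43.4 CPM in cocultures. Cdc20, the activator of the APC/C that Mad2l1 binds, measured 22.5, 49.6, 41.3 and 48.6 CPM and 30.0, 71.8, 69.0 and 40.1 CPM. The groups overlapped for both, with log2 fold changes of -0.51 ± 0.28 for Mad2l1 (edgeR adjusted p = 0.233) and 0.38 ± 0.38 for Cdc20 (adjusted p = 0.521), or -0.38 ± 0.21 and 0.19 ± 0.29 without replicate 3. The checkpoint kinase Bub1, its relative Bub1b and the ubiquitin-conjugating enzyme Ube2c had log2 fold changes between -0.16 and 0.11, and between -0.67 and 0.52 without replicate 3.

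The only G2/M gene called with all libraries was Nusap1, a microtubule-binding protein of the mitotic spindle (chr2:119618298-119651244, plus strand). Nusap1 measured 81.2, 72.7, 58.9 and 80.4 CPM in MKs cultured alone and 34.2, 36.9, 19.99 and 28.3 CPM in cocultures. Every coculture was under every library of MKs cultured alone, replicate 3 being the lowest. Its log2 fold change was -1.30 ± 0.27 (edgeR adjusted p = 0.00918) and -1.16 ± 0.19 without replicate 3 (adjusted p = 7.89e-05), and scaling to MK and platelet markers gave -1.09. With both of these changes it was -0.87 and the gene was no longer called.

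Mki67, which encodes the proliferation antigen Ki-67 on mitotic chromosomes, measured 31.1, 47.9, 25.2 and 36.4 CPM in MKs cultured alone and 17.8, 19.1, 0.209 and 8.67 CPM in cocultures. The groups did not overlap, and replicate 3 held 2 counts of Mki67. Its log2 fold change was -1.62 ± 0.91 with all libraries (edgeR adjusted p = 0.238) and -1.22 ± 0.29 without replicate 3 (adjusted p = 0.00178). Top2a, topoisomerase II alpha, which untangles sister chromosomes, measured 259, 219, 179.6 and 198 CPM and 145, 181, 35.1 and 87.8 CPM. Coculture 2 overlapped with the lowest library of MKs cultured alone, and the log2 fold change of Top2a was -0.93 ± 0.44 (edgeR adjusted p = 0.159) and -0.65 ± 0.22 without replicate 3 (adjusted p = 0.0200), which was under 2-fold. Kif11, the motor that separates spindle poles, had groups that did not overlap and a log2 fold change of -1.28 ± 0.67 (edgeR adjusted p = 0.208) and -0.91 ± 0.24 without replicate 3 (adjusted p = 0.00466). Cenpe, a kinetochore motor, measured 11.8, 13.8, 40.6 and 10.6 CPM in cocultures, highest in replicate 3, and its log2 fold change of 0.09 ± 0.58 (edgeR adjusted p = 0.930) turned to -0.60 ± 0.33 without that replicate (adjusted p = 0.133). Cenpf, another kinetochore gene, had log2 fold changes of -0.70 ± 0.77 and -0.31 ± 0.27.

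Cytokinesis, the step that endomitosis leaves unfinished, was covered by Ect2, Prc1 and Kif23, and 0 of the 3 were called, beside 20.5% of all genes tested. Ect2, which activates the GTPase RhoA at the cleavage furrow, measured 51.6, 45.8, 36.7 and 38.7 CPM in MKs cultured alone and 19.5, 30.1, 0.942 and 22.0 CPM in cocultures. The groups did not overlap, and the log2 fold change of Ect2 was -1.25 ± 0.76 (edgeR adjusted p = 0.270) and -0.87 ± 0.22 without replicate 3 (adjusted p = 0.00267), under 2-fold. Prc1, which bundles the microtubules of the midzone, measured 60.7, 81.6, 63.0 and 54.7 CPM and 57.2, 92.5, 0.419 and 49.1 CPM. Apart from replicate 3, with 4 counts, the libraries of Prc1 overlapped, and its log2 fold change was -0.38 ± 0.96 (edgeR adjusted p = 0.811) and 0.0069 ± 0.22 without that replicate. Kif23, a motor of the midzone, had a log2 fold change of -1.21 ± 0.72 (edgeR adjusted p = 0.261) and -0.85 ± 0.30 without replicate 3 (adjusted p = 0.0257). Ect2 to Prc1, as a log2 ratio, differed by -0.32 (two-sided exact permutation test, p = 0.629, adjusted 0.686), and by -0.84 without replicate 3, where the groups did not overlap and the p of 0.0571 is the smallest possible.

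Counted over the groups, 4 G1/S and 0 G2/M genes had all cocultures above all MKs cultured alone, beside 19.3% of all genes tested. The reverse held for 4 G1/S genes (Cdk6, Cdk2, Cdkn1b and Mcm6) and 5 G2/M genes (Ccnb2, Kif11, Nusap1, Mki67 and Ect2), beside 21.1% of all genes tested. Without replicate 3 the counts were 7 and 0 higher (30.7% of all genes) and again 4 and 5 lower (25.4%).

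**Figure D4:**
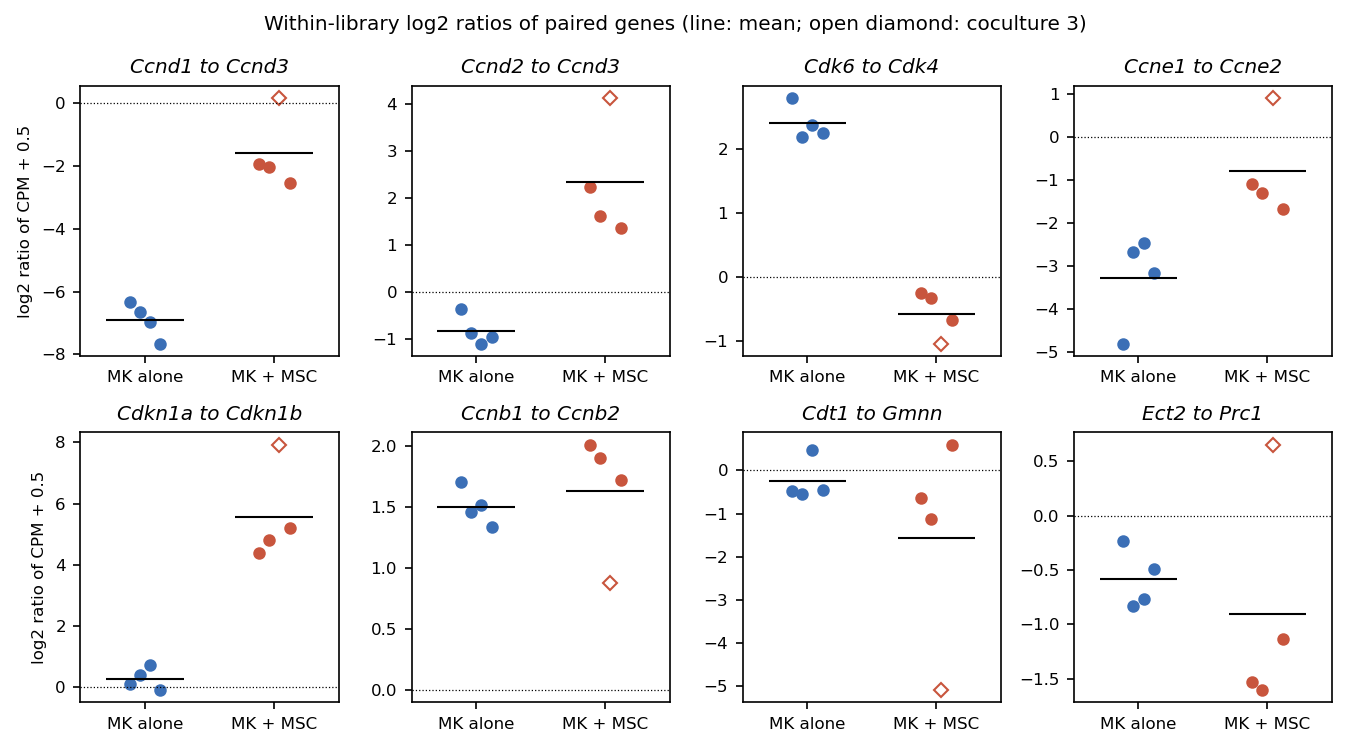
The log2 ratio of 8 pairs of cell cycle genes (CPM + 0.5) is plotted for each library of MKs cultured alone (blue) and cocultures (red, with replicate 3 as an open diamond), with a line at the mean. The 5 ratios of D cyclins, CDK4 and CDK6, E cyclins and CIP/KIP inhibitors separate the groups, whereas Ccnb1 to Ccnb2, Cdt1 to Gmnn and Ect2 to Prc1 overlap with all 8 libraries.

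Further genes of the same processes were counted from lists of other G1/S and replication genes, other CDK inhibitors, other G2/M and mitosis genes and p53 targets. Of 41 other G1/S genes, 1 was called higher and 2 lower, with a median log2 fold change of -0.23, beside 13.2% of all genes called higher and 7.31% lower. Of 50 other G2/M genes tested, 0 were called in either direction by edgeR with all libraries, with a median of -0.31. Only 1 of them had an unadjusted edgeR p under 0.05, beside 4236 of all 11722 genes tested. Without replicate 3, 1 of these 50 was called higher and 1 lower, beside 20.6% and 15.4% of all genes. These were Mybl2, a partner of the complex that switches on mitosis genes (log2 fold change 1.09), and Smc4, a condensin subunit (-1.01). Both were chosen after their values were seen. Of the 41 other G1/S genes, 1 was called higher and 3 lower without replicate 3.

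Tk1, thymidine kinase, measured 3.53, 3.30, 5.54 and 5.04 CPM in MKs cultured alone and 11.6, 23.6, 44.3 and 13.0 CPM in cocultures, with no overlap and a log2 fold change of 2.40 ± 0.56 (edgeR adjusted p = 0.0153) and 1.85 ± 0.33 without replicate 3. E2f2, an activating E2F factor, measured 40.4, 50.8, 66.0 and 58.7 CPM and 11.1, 13.0, 21.8 and 12.5 CPM, with no overlap. Its log2 fold change was -1.89 ± 0.33 (edgeR adjusted p = 0.00394) and -2.17 ± 0.22 without replicate 3, opposite in sign to that of E2f1. Slbp, which processes histone mRNA in S phase, measured 394, 258, 224 and 307 CPM and 162, 149.9, 113 and 133 CPM, again with no overlap, and its log2 fold change was -1.08 ± 0.22 (edgeR adjusted p = 0.00888) and -1.01 ± 0.20 without replicate 3.

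Of the other CDK inhibitors, 2 of 4 were called higher and 1 lower, with all libraries and without replicate 3. The shares of all genes were 13.2% and 7.31% with all libraries, and 20.6% and 15.4% without replicate 3. Cdkn2b, which encodes the INK4 inhibitor p15, had 3, 3, 0 and 0 counts in MKs cultured alone and 34.98, 30.1, 42.7 and 30.9 CPM in cocultures. Cdkn2a, from the same locus, had 0 counts in all libraries of MKs cultured alone and 20, 17, 55 and 15 counts in cocultures. Both were thus at or near the floor in MKs cultured alone and detected in every coculture (edgeR adjusted p = 0.000882 and 0.00600). Cdkn2d, the INK4 inhibitor p19, measured 86.3, 102, 118 and 114 CPM and 41.2, 44.9, 70.003 and 40.2 CPM, with no overlap and a log2 fold change of -1.10 ± 0.25 (edgeR adjusted p = 0.0133) and -1.34 ± 0.18 without replicate 3.

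Of 15 p53 target genes other than Cdkn1a, 9 were called higher and 3 lower, beside 13.2% and 7.31% of all genes, with a median log2 fold change of 1.64 beside 0.034 for all genes tested. Without replicate 3 the counts were again 9 and 3, beside 20.6% and 15.4%, with a median of 1.57. Phlda3, an inhibitor of AKT, measured 2.65, 4.43, 6.54 and 3.90 CPM in MKs cultured alone and 117, 147, 215 and 171 CPM in cocultures, with a log2 fold change of 5.19 ± 0.36 (edgeR adjusted p = 3.24e-05) and 4.97 ± 0.25 without replicate 3. Plk2, a Polo-like kinase, measured 4.86, 4.74, 5.21 and 2.28 CPM and 112, 93.5, 48.6 and 128 CPM, with a log2 fold change of 4.47 ± 0.43 (edgeR adjusted p = 0.000159) and 4.66 ± 0.25 without replicate 3. Groups did not overlap for either gene, nor for Perp, a membrane protein of cell junctions, which went the other way. Perp measured 21.4, 7.21, 6.10 and 10.6 CPM and 0.853, 0.912, 0.209 and 0.867 CPM, with a log2 fold change of -3.97 ± 0.74 (edgeR adjusted p = 0.00519) and -3.66 ± 0.51 without replicate 3. The remaining genes called higher were Eda2r, Zmat3, Pmaip1, Ccng1, Bax, Aen and Mdm2, with log2 fold changes from 1.21 to 3.38, and those called lower were Trp53inp1 and Btg2, at -2.05 and -1.31. The sum of the 15 genes was 1127 to 1623 CPM in MKs cultured alone and 2434 to 2789 CPM in cocultures.

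**Figure D5:**
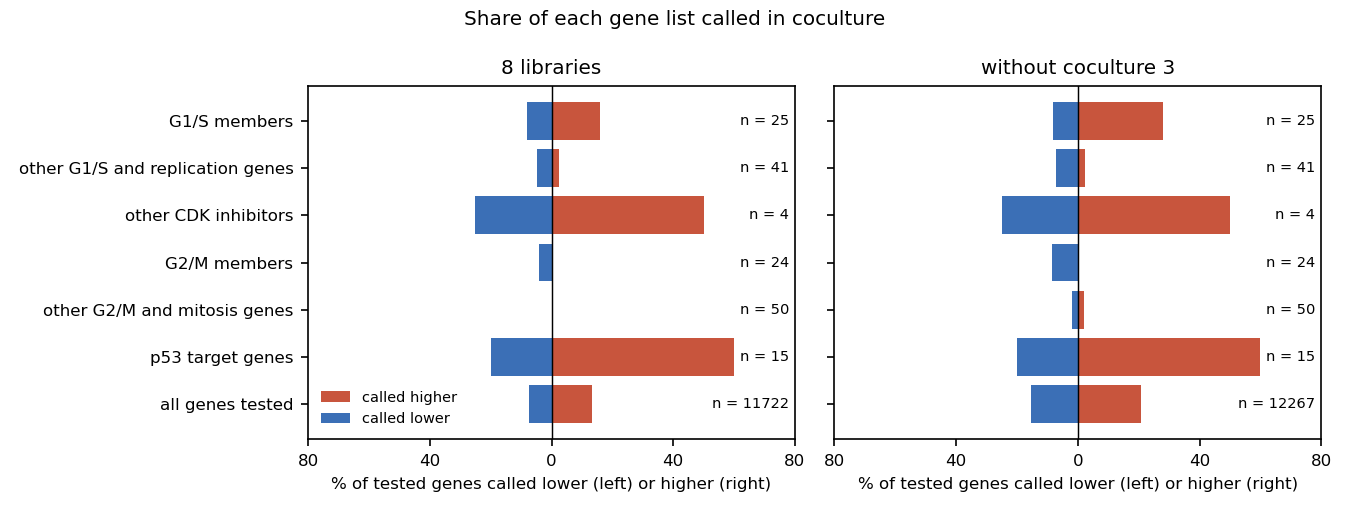
Bars give the percentage of tested genes in each list that were called higher (red, to the right) or lower (blue, to the left) in cocultures, with all 8 libraries and without replicate 3, and n is the number tested. All genes tested had 13.2% and 20.6% called higher and 7.31% and 15.4% called lower. The G1/S genes extend to both sides, and the G2/M genes only to the left and less far than all genes tested. The p53 targets extend farther than all genes tested on both sides.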

How the data were processed

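Bulk RNA-Seq counts of 8 libraries (4 of MKs cultured alone, 4 of MK and MSC cocultures) were grouped by the labels. The deposited values are raw counts for each gene, whole numbers that the authors did not normalize. By the methods, low-input SMART-Seq HT libraries were read from both ends, filtered with fastp and quantified with kallisto against mm10, and DESeq2 served for the authors' own tests. Tool versions, the summing of transcripts to genes, the use of strand and the batch in the authors' design are not given in the sources used here, so that overlapping and antisense genes are uncertain. SMART-Seq reads carry no molecular identifiers.

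Counts were tested here by the quasi-likelihood F test of edgeR 4.0.16 (R 4.3.3), robust, after filterByExpr and with TMM factors and no covariate, across all genes, with Benjamini-Hochberg adjustment over the 11722 genes tested. Standard errors were taken from the log2 fold change and its F statistic. Ratios within a library, log2 of (CPM + 0.5), were compared by a two-sided exact permutation test (scipy 1.17.1) and adjusted over 8 ratios. Gene positions and exon lengths were those of GENCODE vM21 (GRCm38, which is mm10), and promoters from RefSeq. An exon length merges all annotated exons of a gene, so shares between genes depend on that choice. Totals of 4939874 to 12523616 counts put 3 counts at 0.284 to 0.662 CPM, which covers counting error only.

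The genes and lists were chosen with earlier results of these data known. Values per library are given for each called gene and for the 2 genes of each of 10 role classes with the highest mean CPM, and of other lists the 3 called genes with the largest change are named. Ccne1, E2f1, Rrm2, Mki67 and any other gene with values of its own were chosen after their values were seen. Alternatives were DESeq2 1.42.0, RLE factors, library size only, scaling to MK and platelet markers, filters on low counts, the replicate number as a block, and leaving out each library. The fits were first tested on simulated counts, drawn from a common profile and dispersion, with no library like replicate 3 of the cocultures. No library was left out of the main values.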

Additional observations from a re-analysis of the deposited data

Results flagged for a closer look

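Of 68 groups of 4 libraries examined, over 26 of the 49 genes and the 8 ratios, 7 held 1 library far from the other 3. Chance gives 3.4, but the groups share libraries and genes, and the difference was not tested. Ccne1, E2f1, Rrm2 and Mki67 were among the 26 because they were called without replicate 3 of the cocultures. That replicate accounted for 5 of the 7 groups. Its log2(CPM + 1) was 11.2 for Ccnd2, above the other cocultures, and 0.144 for Ccne2, 0 for E2f1, 0.957 for Ect2 and 0.504 for Prc1, below them. Among MKs cultured alone, replicate 1 stood above the others with a log2(CPM + 1) of 6.71 for Mad2l1, and replicate 3 with a log2 ratio of Cdt1 to Gmnn of 0.47.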

How the results depend on the processing

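Leaving out each library in turn gave 1634 to 4420 genes called, 1071 to 2530 called higher and 539 to 1890 called lower, against 2401, 1544 and 857 with all 8 libraries. The G1/S genes called higher then numbered 4 to 7 and those called lower 1 to 2, and 1 to 2 G2/M genes were called lower. The highest of these counts came without replicate 3 of the cocultures, except for the G1/S genes called lower, which numbered 1 only without replicate 4 of the MKs cultured alone (Cdkn1b).

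Other settings were then combined with leaving out that replicate, which was chosen after seeing the data. Genes called, called higher and called lower numbered 4363, 2563 and 1800 with DESeq2, 4515, 3166 and 1349 with scaling to MK and platelet markers, 4494, 2595 and 1899 with the replicate block, and 4368, 2793 and 1575 with library size only. In each of these 7 G1/S genes were called higher and 2 G2/M genes lower, except that 0 G2/M genes were called lower with scaling to the markers.

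Some values near 0 changed sign. With each library left out in turn, Mcm3 ran from -0.096 to 0.20, Rrm1 from -0.16 to 0.56, Ccne2 from -0.85 to 0.027, Prc1 from -0.84 to 0.0069, Cdkn2c from -0.015 to 0.67, Cdk1 from -0.12 to 0.64, Cdc25b from -0.58 to 0.20 and Cenpe from -0.60 to 0.48. Mcm3 went to -0.081 with at least 10 counts in every library, and below 0 without replicate 1 or 4 of MKs cultured alone. With the replicate block Rrm1, Cdkn2c and Cenpe went to -0.24, -0.25 and -0.097, and without coculture replicate 2 Rrm1, Cdkn2c and Cdk1 were below 0. Cenpe also went to -0.042 with library size only and -0.11 with at least 10 counts in every library, and below 0 without replicate 3 of either group. Cdc25b went to 0.021 with scaling to the markers and above 0 without replicate 2 or 3 of MKs cultured alone or coculture replicate 1 or 4. Without coculture replicate 3, Ccne2 and Prc1 rose above 0, to 0.043 and 0.039 with DESeq2, to 0.35 and 0.31 with scaling to the markers, where Ccna2 and Tpx2 were at 0.13 and 0.066, and to 0.19 and 0.14 with library size only, while Birc5 went to -0.084 with the block. Cenpe was then at -0.57, -0.30, -0.48 and -0.79 with DESeq2, scaling to the markers, library size only and the block. None of these genes was called in either direction, and the cause was not tested. Over 36 of the 49 genes, 620 values under an alternative kept the direction and side of the threshold, 19 passed it, 2 lost it and 33 changed sign.

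Same-numbered libraries were not taken as pairs, since the labels give a number no shared origin and the deviations of same-numbered libraries correlated at 0.369, 0.0198, 0.15 and 0.028 across genes, not all over 0.1. Replicates 1 and 3 of each group correlated best with their own number and replicates 2 and 4 did not, and whether a number marks a batch is not given in the sources used here. With the replicate number as a block 1669 genes were called, and the counts of G1/S and G2/M genes called were as without it. Keeping only genes with 10 counts or more throughout left 19 G1/S and 18 G2/M genes. Ccnd1, Ccne1, Ccne2, E2f1, Mki67, Ect2 and Prc1 were among those left out. With this filter 3 G1/S genes were called higher and 2 lower, and 0 G2/M genes were called higher and 1 lower. Of the 7497 genes tested there, 1109 were called higher and 795 lower. The depth of 3 counts limits Ccne1, Cdkn2a and Cdkn2b in MKs cultured alone and the genes at 0 in coculture replicate 3.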
